A study of Mus musculus with 6 samples.

Results

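The genes described here are 10 that shape or remove mitochondria, namely Mfn1, Mfn2, Opa1 and Oma1 for fusion and the inner membrane, Dnm1l, Fis1 and Mff for fission, and Pink1, Bnip3 and Bnip3l for mitophagy. They were chosen by name, and for each the brightest probe set annotated with that symbol alone was used. All 10 had such a probe set among 19938 genes on the array, and all 10 passed the filter on dim genes, which left 11963 genes to be tested. The tissue was the epididymal fat pad (eWAT), which is visceral white fat, and came from obese male C57BL6/J mice whose high-fat diet (HFD) began at 6 weeks of age and lasted 12 weeks. The fat pads of both groups were injected on both sides with a recombinant adeno-associated virus (rAAV) of the Rec2 serotype, which carried either Lmo3, a LIM-domain cofactor of transcription, or yellow fluorescent protein (YFP). By the paper's account, the virus was given after 2 weeks of HFD, and the mice were studied 10 weeks after that. The transgene was driven by the ubiquitous CMV enhancer and chicken β-actin promoter and was therefore not restricted to adipocytes by its promoter. By confocal microscopy, the paper reports LMO3 protein in the mature adipocytes of rAAV-Lmo3 fat. The rAAV-Lmo3 and rAAV-YFP groups each held 3 arrays, and each array carried RNA pooled from 2 mice.

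Mitochondria continually fuse and divide. Mitofusins join the outer membranes and OPA1 the inner membranes, while the GTPase DRP1, encoded by Dnm1l, is recruited by outer membrane adaptors to cut the organelle. Damaged or surplus mitochondria are removed by mitophagy, either through the kinase PINK1 and the ubiquitin ligase parkin or through receptors such as BNIP3 and NIX (the product of Bnip3l) that bind the autophagy machinery directly. In white fat, mitophagy is known to accompany the loss of mitochondria when beige adipocytes turn white.

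Array medians lay between 123 and 127.5 in linear intensity, the unit of all levels below. The arrays rAAV-Lmo3 1 and rAAV-YFP 2 stood apart, since they correlated with the rest at a mean of 0.986 and 0.988, against 0.990 to 0.991 for the other 4 arrays, and the values of all 10 genes are also given without them. The probe set of Lmo3 gave no check of the labels, because it read 24, 26 and 24 on rAAV-Lmo3 arrays and 25, 24 and 24 on rAAV-YFP arrays, below the limit of 114 used for dim genes. By qPCR, the paper reports strong Lmo3 expression in eWAT of rAAV-Lmo3 mice and none detectable in that of rAAV-YFP mice. Adipocyte markers were bright on all arrays, with Adipoq (adiponectin) between 8014 and 10809 on rAAV-Lmo3 arrays and between 8364 and 10223 on rAAV-YFP arrays.

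None of the 10 genes passed the test between the groups. With limma and Benjamini-Hochberg adjustment over all tested genes, their adjusted p-values lay between 0.970 and 0.990, and the smallest unadjusted p was 0.131. Of all genes tested, 0 of 11963 (0%) passed an adjusted p of 0.05, and at an unadjusted p under 0.05 there were 558 genes (4.66%), of which 271 (2.27%) were higher and 287 (2.4%) lower in rAAV-Lmo3. None of the 10 was among these 558, and in none of the 10 did the 3 rAAV-Lmo3 arrays lie wholly on one side of the 3 rAAV-YFP arrays, a separation seen in 10.5% of all genes tested. Of the members, 7 stood above 0 and 3 below it, with a median log2 difference (rAAV-Lmo3 minus rAAV-YFP, as throughout) of 0.07, where 50.3% of all tested genes stood above 0 and their median was 0.00. The 95% intervals for Mfn1, Mfn2, Opa1, Oma1, Fis1 and Bnip3l lay between 0.830-fold and 1.30-fold.

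**Figure D1:**
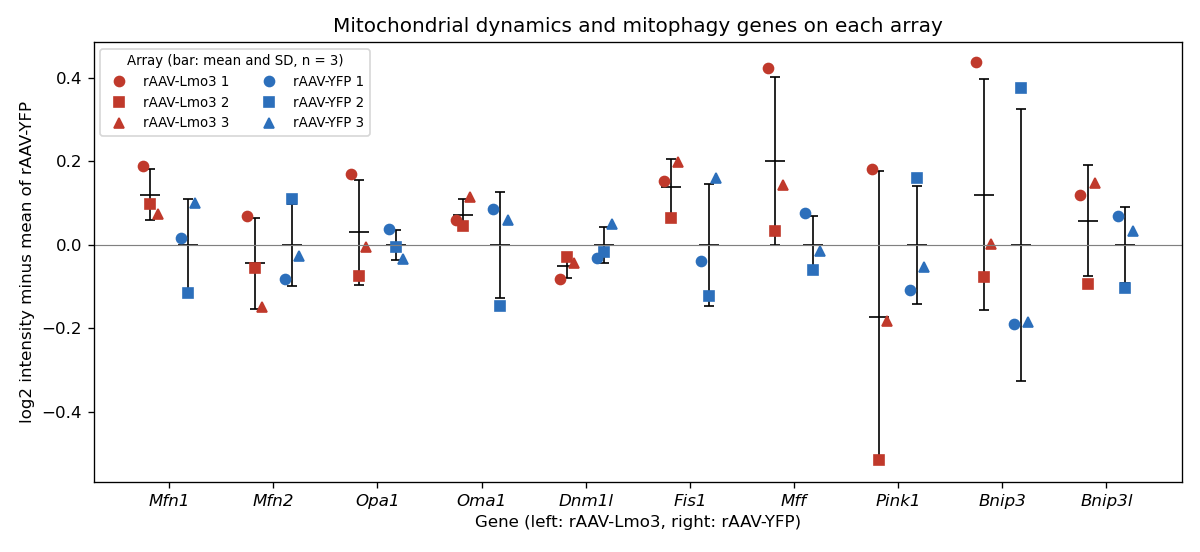
Points give log2 intensity on each array minus the mean of the 3 rAAV-YFP arrays for each gene, rAAV-Lmo3 (red) to the left of rAAV-YFP (blue), with bars for the group mean and SD (n = 3). The groups overlap for all 10 genes, the Dnm1l points lie closest together, and those of Pink1 and Bnip3 are spread most widely.

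Among the fusion genes, Mfn1, an outer membrane mitofusin, read 529, 496 and 488 on rAAV-Lmo3 arrays and 469, 428 and 497 on rAAV-YFP arrays. Only the rAAV-YFP 3 array reached into the rAAV-Lmo3 range, and the log2 difference was 0.12 ± 0.09 (SE, n = 3 per group) with a limma-adjusted p of 0.970. It was 0.06 without rAAV-YFP 2 and 0.03 without both arrays that stood apart. Mfn2, the second mitofusin, which also tethers mitochondria to the endoplasmic reticulum, read 1432, 1313 and 1231 on rAAV-Lmo3 arrays and 1289, 1471 and 1338 on rAAV-YFP arrays, a difference of -0.04 ± 0.09. Its highest value in each group came from one of the arrays that stood apart. The difference was -0.05 without both, and without 1 array it ran from -0.10 without rAAV-Lmo3 1 to 0.01 without rAAV-YFP 2.

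Opa1, the GTPase that fuses inner membranes and holds cristae closed, read 1070, 903 and 948 on rAAV-Lmo3 arrays and 977, 948 and 929 on rAAV-YFP arrays. The rAAV-Lmo3 group enclosed the whole rAAV-YFP range, and the difference was 0.03 ± 0.09. It was -0.04 both without rAAV-Lmo3 1 and without the 2 arrays that stood apart, so its direction rested on rAAV-Lmo3 1. Oma1, the stress-activated protease that cleaves OPA1, read 204, 202 and 212 on rAAV-Lmo3 arrays and 208, 177 and 204 on rAAV-YFP arrays. Its difference of 0.07 ± 0.09 came down to 0.00 when rAAV-YFP 2, the low array, was left out, and to 0.01 without both arrays that stood apart.

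Among the fission genes, Dnm1l read 1138, 1180 and 1167 on rAAV-Lmo3 arrays and 1177, 1189 and 1246 on rAAV-YFP arrays. These were the most even values of the 10 genes. The pooled SD within groups was 0.04 on the log2 scale, at the 1.84th percentile of all tested genes, and the difference was -0.05 ± 0.07 with a 95% interval from 0.858-fold to 1.09-fold. It was -0.05 without both arrays that stood apart and -0.03 without rAAV-YFP 3. Fis1, an outer membrane protein linked to fission, read 881, 829 and 909 on rAAV-Lmo3 arrays and 771, 728 and 886 on rAAV-YFP arrays. On 2 of its rAAV-YFP arrays the value lay below all rAAV-Lmo3 arrays, and the difference was 0.14 ± 0.10. It was 0.08 without rAAV-YFP 2, 0.22 without rAAV-YFP 3 and 0.07 without both arrays that stood apart.

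Mff, the main outer membrane receptor for DRP1, had the largest difference of the 10 genes. It read 1048, 800 and 863 on rAAV-Lmo3 arrays and 824, 749 and 773 on rAAV-YFP arrays, which overlapped through rAAV-Lmo3 2 and rAAV-YFP 1. The difference was 0.20 ± 0.12 on the log2 scale, or 1.15-fold with a 95% interval from 0.948-fold to 1.39-fold, at an unadjusted p of 0.131 and a limma-adjusted p of 0.970. An exact two-sided permutation test of the 3 against 3 arrays gave p = 0.2, where 0.1 is the smallest p it can give. Without rAAV-Lmo3 1 the difference was 0.09, and without both arrays that stood apart it was 0.06.

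Pink1, the kinase that accumulates on depolarised mitochondria and activates parkin, read 1011, 624 and 786 on rAAV-Lmo3 arrays and 828, 997 and 859 on rAAV-YFP arrays. The rAAV-Lmo3 group held both the highest and the lowest array, with an SD of 0.35 on the log2 scale, against 0.14 in the rAAV-YFP group. The difference was -0.17 ± 0.18, with a limma-adjusted p of 0.971, and the 95% interval ran from 0.658-fold to 1.20-fold. Single arrays decided the value. Without rAAV-Lmo3 1 the difference was -0.35 with an unadjusted p of 0.0438, the only unadjusted p under 0.05 among 163 values of the 10 genes under the alternative settings. Without rAAV-Lmo3 2 it was 0.00, without rAAV-YFP 2 it was -0.09, and without both arrays that stood apart it was -0.27.

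**Figure D2:**
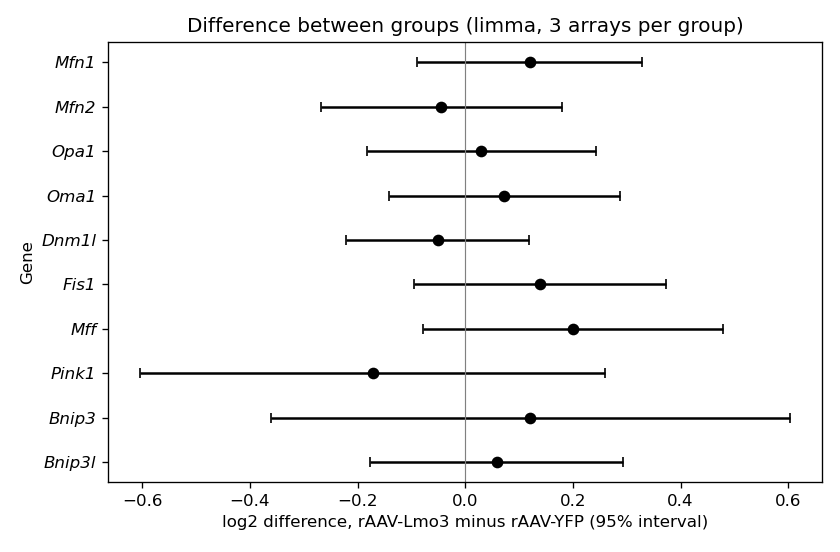
Points give the log2 difference, rAAV-Lmo3 minus rAAV-YFP, for each gene from limma with 3 arrays per group, and bars its 95% interval. All 10 intervals include 0, and those of Pink1 and Bnip3 are the widest.

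Bnip3, a mitophagy receptor known as a target of hypoxia-inducible factor (HIF), had the largest spread of the 10 genes. It read 3986, 2791 and 2948 on rAAV-Lmo3 arrays and 2581, 3819 and 2589 on rAAV-YFP arrays. The 2 arrays that stood apart, 1 in each group, were the highest, and the other 4 lay between 2581 and 2948. The pooled SD within groups was 0.30 on the log2 scale, at the 88.0th percentile of all tested genes. The difference was 0.12 ± 0.20, with a 95% interval from 0.779-fold to 1.52-fold. It was -0.04 without rAAV-Lmo3 1, 0.31 without rAAV-YFP 2 and 0.15 without both. The paper, in its gene set enrichment of obese eWAT, names Bnip3 among leading genes of a set for adipose hypertrophy or hyperplasia. That enrichment was not examined here.

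By the mean level of each marker list, the same 2 arrays were the lowest for macrophages and adipose progenitors and the highest for adipocytes, skeletal muscle and red cells. Single markers were less uniform. Both arrays lay below the other 4 for 11 of 12 tested macrophage markers and 5 of 9 progenitor markers, and above the other 4 for 5 of 11 adipocyte markers, 4 of 6 skeletal muscle markers and both tested erythroid markers, Alas2 and Slc4a1. The mean centred log2 level of 12 macrophage markers, all tested, was -0.45, 0.21 and 0.45 on rAAV-Lmo3 arrays and 0.49, -0.72 and 0.02 on rAAV-YFP arrays. That of 11 tested adipocyte markers of 12 was 0.14, -0.05 and -0.18 on rAAV-Lmo3 arrays and -0.12, 0.18 and 0.04 on rAAV-YFP arrays. The highest of the other 4 arrays on this score was rAAV-YFP 3, at 0.04. The 9 tested progenitor markers of 10 had a mean centred level from -0.16 to 0.21 on rAAV-Lmo3 arrays and from -0.28 to 0.13 on rAAV-YFP arrays. The level of 6 tested skeletal muscle markers of 9 was 0.17, -0.12 and -0.23 on rAAV-Lmo3 arrays and -0.04, 0.42 and -0.20 on rAAV-YFP arrays. The 2 tested erythroid markers of 10 stood at 0.44, -0.38 and 0.00 on rAAV-Lmo3 arrays and at -0.09, 0.32 and -0.29 on rAAV-YFP arrays. Myh4, a fast muscle myosin below the filter on dim genes, read 226, 55 and 54 on rAAV-Lmo3 arrays and 92, 229 and 59 on rAAV-YFP arrays. No marker was listed at 0, their part in the Bnip3 values was not tested, and in pooled tissue fewer cells of a type and less RNA per cell cannot be told apart. Mfn2 and Pink1 were likewise above the rest of their group on both arrays that stood apart, by 0.17 and 0.53 on rAAV-Lmo3 1 and by 0.16 and 0.24 on rAAV-YFP 2, while Bnip3 was above by 0.47 and 0.56. The other 7 members were above the rest on at most 1 of these 2 arrays, and 32.8% of all tested genes were above it on both.

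**Figure D3:**
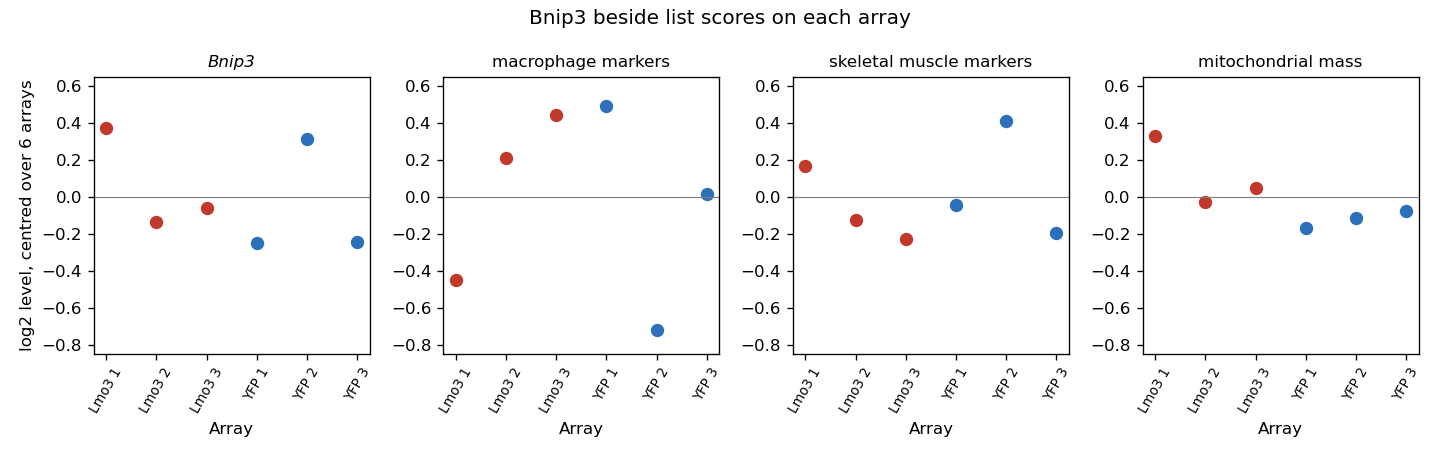
Points give the log2 level of Bnip3 and the mean centred log2 level of macrophage markers, skeletal muscle markers and mitochondrial mass genes on each array, rAAV-Lmo3 (red) to the left of rAAV-YFP (blue). Bnip3 is highest and the macrophage score lowest on rAAV-Lmo3 1 and rAAV-YFP 2.

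The 5 genes most like Bnip3 over the 6 arrays, by Pearson r of log2 values and as a description only, were Snora44, a small nucleolar RNA (0.99), Med28 (0.99), Tuba8, an alpha-tubulin (0.99), Fam76a (0.98) and Cmpk2, a mitochondrial nucleotide kinase (0.98). Their choice by r with Bnip3 over 6 arrays largely fixes the values that follow, which are no further check. Computed on the deviations from the group means, r was 0.99 for each of the 5, and each was highest on the same 2 arrays as Bnip3. Med28, a Mediator subunit, for example, read 449, 329 and 333 on rAAV-Lmo3 arrays and 302, 408 and 312 on rAAV-YFP arrays.

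Bnip3l, whose product NIX clears mitochondria from maturing red cells, read 2538, 2187 and 2589 on rAAV-Lmo3 arrays and 2451, 2174 and 2389 on rAAV-YFP arrays. It did not share the pattern of Bnip3, since rAAV-YFP 2 was the lowest of its arrays, and the difference was 0.06 ± 0.10. This value rested on single arrays, since it was 0.01 without rAAV-YFP 2, 0.01 without rAAV-Lmo3 3, 0.03 without rAAV-Lmo3 1, 0.09 without rAAV-YFP 1, 0.13 without rAAV-Lmo3 2 and -0.02 without both arrays that stood apart.

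Bnip3 and Bnip3l each had a second probe set, and the brighter one, used above, was numbered among probe sets of another chromosome. What it hybridised was not tested. In probe set number order, the 6 nearest annotated neighbours of the brighter Bnip3 probe set all belonged to chromosome 14, whereas Bnip3 is on chromosome 7. Those of the brighter Bnip3l probe set belonged to chromosome 12, where the reference lists the pseudogene Bnip3l-ps, whereas Bnip3l is on chromosome 14. The dimmer probe sets had 6 of 6 and 5 of 6 neighbours on the chromosome of their gene. The dimmer Bnip3 probe set read 2422, 1743 and 1692 on rAAV-Lmo3 arrays and 1422, 2323 and 1597 on rAAV-YFP arrays, with the same 2 arrays highest and a difference of 0.15. The dimmer Bnip3l probe set read 2291, 1976 and 2342 on rAAV-Lmo3 arrays and 2158, 1997 and 2137 on rAAV-YFP arrays, a difference of 0.07. Neither choice of probe set altered the direction or brought a gene past the test.

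**Figure D4:**
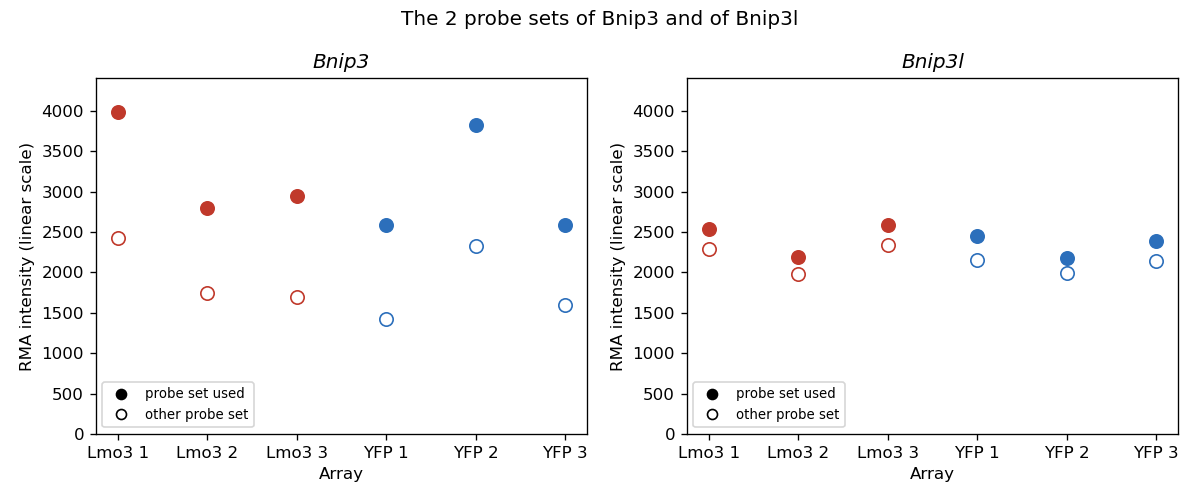
Points give linear RMA intensity of the probe set used (filled) and of the second probe set (open) of Bnip3 and Bnip3l on each array, rAAV-Lmo3 (red) to the left of rAAV-YFP (blue). Both Bnip3 probe sets are highest on rAAV-Lmo3 1 and rAAV-YFP 2, and neither Bnip3l probe set is.

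The upstream sequences of Bnip3 and Opa1 are shown because Bnip3 held the most matches to the core motif of HIF, and Opa1 the only match to that of NRF1, among the genes with a sequence. RefSeq (GRCm38.p6) gave 9 of the 10 members a promoter, in 14 windows of 250 bases upstream of a start site. The HIF core (ACGTG or GCGTG, both strands) was found in 6 of these 14 windows, those of Mfn2, Dnm1l, Pink1 and Bnip3, and in 38.6% of 32851 windows over all genes. The 6 windows are not separate regions, since those of Mfn2 start sites 2 and 3 overlap and share a match. The Dnm1l window with a match lies downstream of the gene's other start site. The window of Bnip3, at chr7:138909507-138909756 on the minus strand, held 5 matches, of which 2 are 1 palindrome (CACGTG, also an E-box) read on both strands. The core for NRF1, a factor of mitochondrial gene expression (GCGCATGC, both strands), was found in 1 window, that of Opa1 at chr16:29579084-29579333 on the plus strand, as 2 overlapping matches, and in 2.26% of all windows. Capitals mark the matches, 5′ to 3′.
Bnip3: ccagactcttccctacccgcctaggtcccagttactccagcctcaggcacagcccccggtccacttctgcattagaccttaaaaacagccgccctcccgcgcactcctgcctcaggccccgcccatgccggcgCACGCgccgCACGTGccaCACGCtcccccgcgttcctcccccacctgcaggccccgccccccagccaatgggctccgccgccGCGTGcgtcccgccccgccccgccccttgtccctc
Opa1: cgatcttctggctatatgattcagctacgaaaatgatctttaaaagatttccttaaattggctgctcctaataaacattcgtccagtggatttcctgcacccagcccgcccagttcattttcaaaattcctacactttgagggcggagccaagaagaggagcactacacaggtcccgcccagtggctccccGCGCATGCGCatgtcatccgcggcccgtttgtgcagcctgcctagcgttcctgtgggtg
These are matches of letters, and no binding was measured.

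In wider lists of the same pathways, no gene passed the adjusted test. The further genes named had the smallest unadjusted p-values of their list, a choice that favours groups that do not overlap. The counts that follow leave the 10 members out. They can be read against the 50.3% of all tested genes that stood above 0. At an unadjusted p under 0.05, 2.27% of all tested genes were higher and 2.4% lower. Of 13 further fusion and inner membrane genes, 10 stood above 0, the median difference was 0.12, and 3 genes passed an unadjusted p of 0.05 on the higher side. Chchd3, a component of the MICOS complex that shapes cristae, read 1687, 1305 and 1479 on rAAV-Lmo3 arrays and 1147, 1093 and 1129 on rAAV-YFP arrays, with a difference of 0.40 ± 0.11. Letm1, an inner membrane ion exchanger, differed by 0.19 ± 0.07 and Afg3l2, an inner membrane protease, by 0.27 ± 0.11. The groups of these 3 genes did not overlap, and each limma-adjusted p was 0.970. With the 4 fusion members included, the list median was 0.10, and it was 0.05 without rAAV-Lmo3 1 and 0.02 without both arrays that stood apart.

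Of 11 further fission genes, 6 stood above 0, with a median of 0.05, and 2 were lower at an unadjusted p under 0.05. Inf2, a formin that assembles actin at fission sites, read 286, 309 and 281 on rAAV-Lmo3 arrays and 341, 373 and 319 on rAAV-YFP arrays, a difference of -0.24 ± 0.09. Dnm2, a dynamin of endocytosis, read 1196, 1262 and 1228 on rAAV-Lmo3 arrays and 1404, 1400 and 1368 on rAAV-YFP arrays, a difference of -0.18 ± 0.07. Spire1, an actin nucleator, differed by 0.14 ± 0.08.

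Of 16 further genes of the PINK1 and parkin pathway, 14 stood above 0, with a median of 0.10, and 0 passed an unadjusted p of 0.05. Rhot1, which couples mitochondria to microtubule motors and is degraded after parkin activation, had the smallest p and differed by 0.16 ± 0.09. Pgam5, a mitochondrial phosphatase, differed by 0.13 ± 0.10 and Park7, an oxidative stress sensor, by 0.27 ± 0.20. Park7 read 2009, 1262 and 1231 on rAAV-Lmo3 arrays and 1139, 1348 and 1149 on rAAV-YFP arrays. With Pink1 included, the list median was 0.09, and it was 0.02 without both arrays that stood apart.

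Of 15 further mitophagy receptors and their regulators, 10 stood above 0, with a median of 0.07, and 1 was lower at an unadjusted p under 0.05. This was Foxo1, a FOXO transcription factor that insulin signalling restrains, with 730, 677 and 625 on rAAV-Lmo3 arrays and 745, 957 and 815 on rAAV-YFP arrays, a difference of -0.30 ± 0.12. Its relative Foxo3 differed by -0.18 ± 0.08, with groups that did not overlap either, and Nipsnap3b, a mitochondrial protein, by 0.21 ± 0.10.

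Among 31 core autophagy genes, 19 stood above 0, the median was 0.01, with 2 genes higher and 1 lower at an unadjusted p under 0.05. Atg5 and Atg10, which act in the conjugation of ATG12, differed by 0.23 ± 0.08 and 0.21 ± 0.08, and Rb1cc1, the scaffold of the ULK1 kinase complex, by -0.23 ± 0.09. The 3 genes had groups that did not overlap.

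Among 21 HIF target genes, 12 stood above 0, the median was 0.06, with 4 genes higher and 1 lower at an unadjusted p under 0.05. Hilpda, a lipid droplet protein induced by hypoxia, read 307, 298 and 335 on rAAV-Lmo3 arrays and 218, 180 and 238 on rAAV-YFP arrays, a difference of 0.57 ± 0.12 with a limma-adjusted p of 0.970. Higd1a, a mitochondrial protein induced by hypoxia, differed by 0.45 ± 0.13 and Ndrg1 by -0.28 ± 0.10. Hilpda, Higd1a and Ndrg1 were named for the smallest unadjusted p-values of the list. Their groups did not overlap, a separation seen in 10.5% of all tested genes.

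**Figure D5:**
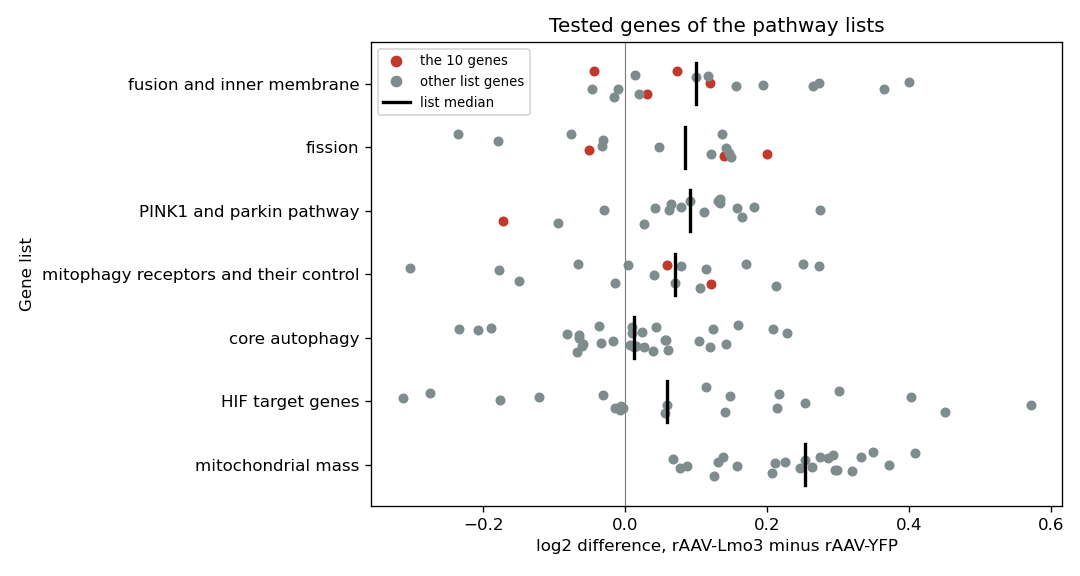
Each point is the log2 difference, rAAV-Lmo3 minus rAAV-YFP, of a tested gene in a list, with the 10 genes in red, the other list genes in grey and the list median as a black bar. The genes of mitochondrial mass all lie above 0, with a median of 0.25, whereas the 10 genes lie on both sides.

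To place the 10 genes beside other nuclear genes of mitochondria, a list of 23 tested genes (of 24, such as Cs, the citrate synthase, and Cycs, cytochrome c) was used. It is called mitochondrial mass here, although the arrays do not measure the mass of the organelle. The list was set beside the members because many such genes were known to lie on one side in these arrays. All 23 stood above 0, with a median difference of 0.25, with 4 past an unadjusted p of 0.05 on the higher side and 0 past the adjusted test. Their mean centred log2 level was 0.33, -0.03 and 0.05 on rAAV-Lmo3 arrays and -0.17, -0.11 and -0.08 on rAAV-YFP arrays. The rAAV-Lmo3 1 array was highest, and without it the median difference was 0.12 and 21 of 23 stood above 0. The level of 4 tested brown adipocyte markers of 9 was highest on the same array, at 0.70, -0.01 and 0.09 on rAAV-Lmo3 arrays and -0.47, -0.18 and -0.14 on rAAV-YFP arrays. Cox8b, at 1017, 351 and 343 on rAAV-Lmo3 arrays, Cox7a1 and Ppargc1a were highest on that array. Prdm16, at 206, 210 and 214 on rAAV-Lmo3 arrays, was not. The part of these markers in the values of the mass genes was not tested. Relative to the mean level of the mass genes, all 10 members stood below 0, with a median of -0.17, where 93.8% of 11940 other genes stood below 0 with a median of -0.24. Pink1 stood at -0.41, Dnm1l at -0.29, Mfn2 at -0.28 and Opa1 at -0.21, and the groups of these 4 members did not overlap on this scale, against 36.6% of all other genes (36.3% in the lower direction). Mff, at -0.04, came closest to the mass genes. These relative values are a description with no test.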

How the data were processed

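Total RNA of 6 pools (3 rAAV-Lmo3, 3 rAAV-YFP) was hybridised to Affymetrix mouse Gene ST arrays. The titles name rAAV-YFP as the control, the treatment protocol rAAV-LacZ, and the titles' name was kept. The deposited intensity values per probe set were made by the authors with RMA in Affymetrix Expression Console 1.1, which includes quantile normalization. They are on a linear scale, rounded to whole numbers, and log2 was taken here. The genome build of the probe sets is not given in the sources used here. Of 35556 probe sets, 21789 had 1 gene symbol, 1621 several and 12146 none, and 21766 of the symbols were found in RefSeq names (GRCm38.p6). Only probe sets with 1 symbol were used, the brightest for each gene. The dimmest 40% of genes (mean log2 under 6.83) were left out.

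Group differences of the other 11963 genes came from a two-sided moderated fit (limma 3.58.1, R 4.3.3, lmFit then eBayes). P-values were adjusted by Benjamini-Hochberg, and 0.05 was the threshold. The steps were tested on simulated data. Single values were compared with an exact permutation test, which cannot go below p = 0.1 with 3 arrays against 3. Arrays give no counts, so their number limits precision, and p-values measure the spread between pools. Named genes are the 10 members, Lmo3, up to 3 further genes per pathway list with the smallest unadjusted p, and the 5 genes most like Bnip3. Genes named beside these (Adipoq, Myh4, Cs, Cycs and single erythroid and brown adipocyte markers) were chosen after their values were seen. The members and lists were chosen with earlier results of these data known. Alternatives were the scale, normalization, array weights, variance prior, replicate block, the methods' t-test, filters, probe set rules, a pseudocount of 16 and left-out arrays. The second probe set of Bnip3 and Bnip3l was added after the data had been seen.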

Additional observations from a re-analysis of the deposited data

How the results depend on the processing

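No member passed an adjusted p of 0.05 under any alternative, and 155 of 163 values, 1 for each member and setting, kept their direction. This share overstates stability, because some settings could not change a direction. The variance prior, replicate block, methods' t-test and filters left every log2 difference that they gave unchanged. All 8 reversed values came from array weights or left-out arrays. Leaving out 1 array at a time gave log2 differences from -0.101 to 0.0104 for Mfn2, -0.0398 to 0.0826 for Opa1, -0.0002 to 0.116 for Oma1, -0.0376 to 0.308 for Bnip3 and -0.349 to -0.0005 for Pink1. Opa1 was -0.0264 with array weights and -0.0422 without both arrays that stood apart, where Bnip3l was -0.0242. Oma1 gave no value with the dimmest 60% left out. Over all genes, 0 passed the adjusted test in any fit, and leave-one-out counts at an unadjusted p under 0.05 ran from 122 to 404 higher and from 140 to 339 lower. The counts were 122 higher and 141 lower without rAAV-YFP 2, 143 higher and 140 lower without rAAV-Lmo3 3, and 167 higher without rAAV-YFP 1. Without a filter on dim genes 458 of 19938 genes were lower, against 287 of 11963 with it. The methods' t-test gave 233 higher and 322 lower. Of the list medians with the members included, fission ran from 0.0281 to 0.125 and HIF targets from 0.0583 to 0.177 with 1 array left out, and core autophagy was -0.0128 without rAAV-YFP 2. Without rAAV-Lmo3 1, fission was 0.0281, fusion and inner membrane 0.0473, the PINK1 and parkin pathway 0.0448, mitophagy receptors 0.0273 and mitochondrial mass 0.117. Without both arrays that stood apart, they were 0.0301, 0.0178, 0.0195, 0.009 and 0.125 in that order, core autophagy was -0.0266 and HIF targets 0.0388, against 0.0838, 0.0994, 0.0919, 0.0702, 0.253, 0.0122 and 0.0592 over all arrays. Relative to mitochondrial mass, Bnip3 stood at 0.0697 without rAAV-YFP 2, Mff at 0.0267 without rAAV-YFP 1 and Fis1 at 0.0039 without rAAV-Lmo3 1, above 0. Deviations of same-numbered arrays from their group means correlated at -0.55, -0.40 and 0.26. The labels do not say whether replicate numbers pair the arrays. With 3 arrays per group these correlations cannot decide it, because the deviations of a group must sum to 0. The replicate block left 0 genes past the adjusted test, with 216 higher and 237 lower at an unadjusted p under 0.05. Precision is limited throughout by having 3 arrays per group. The cause of these dependences was not tested.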
